A study of Mus musculus with 4 samples.

Results

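The 40 genes described here code for the contractile, calcium-handling and regulatory proteins of skeletal muscle, and were taken by exact gene symbol from count tables of 20611 genes. All 40 were listed, and 37 passed the filter on low counts; *Myl3*, *Tnnc1* and *Pax7* did not. The RNA was from the back skin of BALB/c males, 8 to 9 weeks old. Imiquimod (IMQ), which gives psoriasis-like dermatitis in mice, was put on the back of every animal as a 5% cream (47 mg a day) from day 1 to day 5, and skin was taken on day 6. The groups were imiquimod alone (IMQ, 1 library), imiquimod followed after about 1 h by a lotion without the compound (IMQ+VEH, 2 libraries) and imiquimod followed by the lotion with IDMF (IMQ+IDMF, 1 library). The abbreviation IDMF stands for isosorbide di-(methyl fumarate), which the study describes as a dimethyl fumarate pro-drug. The study's design text calls the libraries independent biological replicates, and the labels name no muscle layer. Skin without imiquimod was not analysed here, and 1 replicated pair limits each group as a model of its treatment.

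Mouse back skin carries a sheet of striated muscle, the panniculus carnosus, beneath the dermis and fat. In striated muscle, myosin thick filaments pull on actin thin filaments after calcium, released through the ryanodine receptor and taken back by the SERCA pump, binds the troponin complex. Fast and slow fibres use different isoforms of myosin, troponin and the light chains. Satellite cells, which carry PAX7, rebuild fibres through the MYF5, MYOD1 and myogenin factors, which bind E-box sequences, and regenerating fibres pass through embryonic and perinatal myosins.

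The promoters of *Myh4* (fast myosin heavy chain), *Acta1* (skeletal actin), *Ckm* (muscle creatine kinase), *Atp2a1* (the SERCA pump of fast fibres) and *Chrna1* (the acetylcholine receptor alpha subunit) are shown because they hold the E-box letters CAGCTG, which myogenic factors are known to bind, and because the first 4 belong to the most abundant muscle transcripts. Each is the 250 bases before the RefSeq start (GRCm38.p6), written 5′ to 3′ on the gene's strand, with CAGCTG in capitals. They lie at chr11:67237562-67237811 (plus strand), chr8:123894776-123895025 (minus), chr7:19410844-19411093 (plus), chr7:126463074-126463323 (minus) and chr2:73580339-73580588 (minus), in this order. In GENCODE M21 the genes themselves span chr11:67238029-67260446, chr8:123891769-123894751, chr7:19404776-19422841, chr7:126445858-126463108 and chr2:73563215-73580338. The *Ckm* window thus lies inside the annotated span of its gene, the *Atp2a1* window overlaps the gene's start, and the others lie upstream.
Myh4: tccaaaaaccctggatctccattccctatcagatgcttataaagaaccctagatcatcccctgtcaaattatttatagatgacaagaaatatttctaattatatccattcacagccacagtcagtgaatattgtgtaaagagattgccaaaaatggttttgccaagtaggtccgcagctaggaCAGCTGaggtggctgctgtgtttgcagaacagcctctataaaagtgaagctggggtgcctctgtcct
Acta1: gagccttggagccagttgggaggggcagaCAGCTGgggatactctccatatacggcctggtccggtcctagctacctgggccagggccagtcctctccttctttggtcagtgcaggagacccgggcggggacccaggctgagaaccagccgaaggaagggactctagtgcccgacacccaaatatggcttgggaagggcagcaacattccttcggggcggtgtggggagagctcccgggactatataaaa
Ckm: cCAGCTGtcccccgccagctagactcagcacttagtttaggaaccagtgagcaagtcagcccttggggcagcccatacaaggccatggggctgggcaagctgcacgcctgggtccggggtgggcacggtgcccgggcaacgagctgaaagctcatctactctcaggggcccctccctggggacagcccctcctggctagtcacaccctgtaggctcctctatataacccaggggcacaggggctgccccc
Atp2a1: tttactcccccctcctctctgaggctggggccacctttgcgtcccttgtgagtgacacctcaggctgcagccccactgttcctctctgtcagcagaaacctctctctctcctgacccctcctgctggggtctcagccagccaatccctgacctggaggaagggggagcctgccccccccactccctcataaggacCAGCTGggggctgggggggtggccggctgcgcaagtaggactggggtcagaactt
Chrna1: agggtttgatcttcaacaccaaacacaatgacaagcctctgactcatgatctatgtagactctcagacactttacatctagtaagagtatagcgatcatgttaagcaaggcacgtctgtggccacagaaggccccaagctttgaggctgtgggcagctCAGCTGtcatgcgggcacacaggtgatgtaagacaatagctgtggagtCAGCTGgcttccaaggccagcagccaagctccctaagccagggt

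Over windows from 250 bases before to 50 after the start, CAGCTG stood in 18 of 40 windows from 33 muscle genes (45.0%), on either strand, against 16.3% of all 32851 windows. By gene, 15 of 33 had it in at least 1 window, and *Chrna1* was the 1 gene with 2 copies in a window. The looser E-box CANNTG, which includes CAGCTG, stood in 80.0% of muscle windows and 72.3% of all windows. A MEF2 motif was found in 1 muscle window, that of *Ttn*, and in 0.557% of all windows. Some genes have several overlapping windows, and a match of letters is not a measured binding site.

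Total counts were 21167149 to 26639628 per library. The detection floor was set at 3 counts, which is 0.107 to 0.146 CPM (counts scaled by library size) and covers counting error only. The 40 genes took 2.32% of counts in IMQ, 4.66% and 3.04% in IMQ+VEH replicates 1 and 2, and 4.26% in IMQ+IDMF. The 2 IMQ+VEH libraries, which were treated alike, stood apart on these genes: replicate 2 was below replicate 1 for 31 of 37 (53.0% of all genes tested), with a median log2 CPM difference of -0.59. In bulk skin, less muscle in a sample and less RNA per muscle cell cannot be told apart.

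Among the myosin heavy chains, the troponins and the light chains, fast forms were far more abundant than slow forms in each of the 4 libraries, and myosin-binding protein C was the exception. Levels between genes are compared by FPKM, the authors' value per kilobase of transcript. *Myh4*, the heavy chain of the fastest fibres, had 417 FPKM in IMQ, 849 and 431 in IMQ+VEH and 724 in IMQ+IDMF, or 74.4% to 77.7% of the summed FPKM of 6 myosin heavy chains. *Myh1*, the chain of intermediate fast fibres, had a share of 12.2% in IMQ, 14.4% and 15.0% in IMQ+VEH and 11.6% in IMQ+IDMF. *Myh2*, the chain of oxidative fast fibres, had 6.22%, 7.05%, 6.77% and 8.20% in the same order. The *Myh2* share was thus highest in IMQ+IDMF and the *Myh1* share highest in the IMQ+VEH pair, a description without a test.

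*Myh7*, the slow heavy chain, had 28, 41, 14 and 32 counts in IMQ, IMQ+VEH replicates 1 and 2, and IMQ+IDMF. Its share of the counts of the 6 chains was 0.0244% in IMQ (95% Wilson interval 0.0169% to 0.0353%), 0.0170% (0.0126% to 0.0231%) and 0.0144% (0.00857% to 0.0242%) in IMQ+VEH, and 0.0187% (0.0133% to 0.0265%) in IMQ+IDMF. These intervals treat reads as independent and cover counting error only, not the spread between animals, so their overlap does not show that the shares were alike. Chains of this family share sequence: 18.9% to 26.9% of the 50-base windows of *Myh1*, *Myh2* and *Myh4* transcripts, 21.4% of *Myh8* and 22.2% of *Myh7*, also occur in another gene, and for *Myh7* mainly in the cardiac *Myh6*. The sources used here do not say how such reads were assigned, so the shares within the family are uncertain.

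The troponins showed the same split by isoform. The fast subunits *Tnnc2* (calcium-binding), *Tnni2* (inhibitory) and *Tnnt3* (tropomyosin-binding) had 1244 to 2766 FPKM over all libraries. Their slow counterparts *Tnnc1*, *Tnni1* and *Tnnt1* had 0.125 to 9.27 FPKM, and the highest slow share of any pair was 0.391%, for *Tnnt1* in IMQ+IDMF. Among the light chains, the fast *Mylpf* had 1314 FPKM in IMQ, 2743 and 1710 in IMQ+VEH and 2035 in IMQ+IDMF, while the slow *Myl2* had 0.725 to 1.58, and *Myl3* had 0 or 1 count in each library. *Mybpc1*, the slow form of myosin-binding protein C, was the exception: it had 39.6, 109, 73.1 and 79.1 FPKM, or 25.2%, 35.9%, 35.4% and 30.3% of the sum with the fast form *Mybpc2*. The plot of isoform levels shows this gap.

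**Figure D1:**
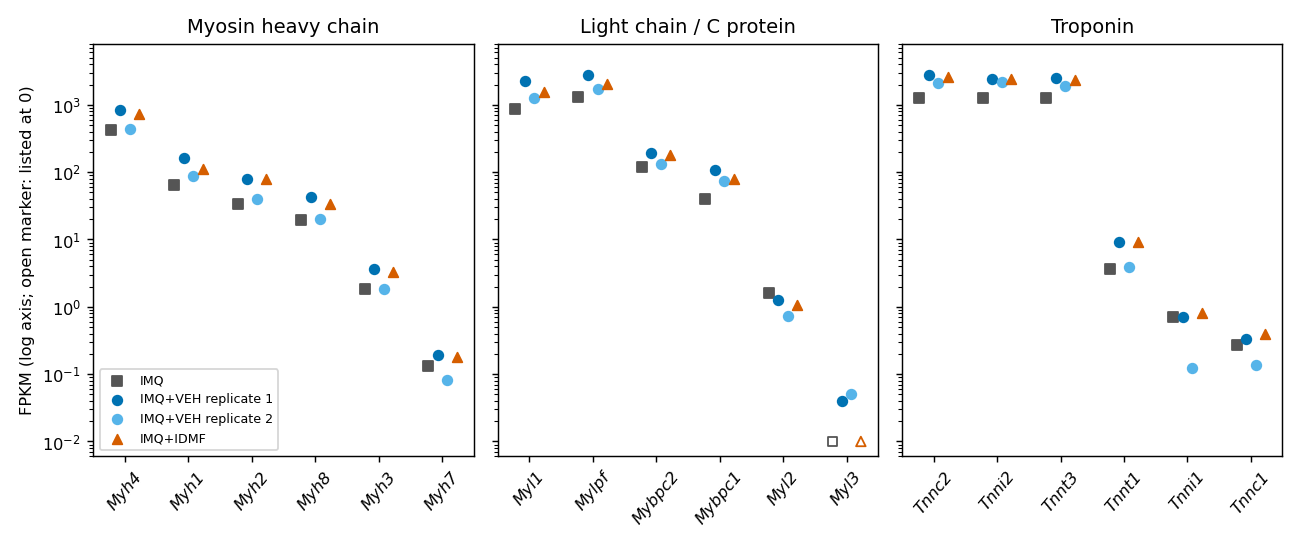
FPKM (log axis) of myosin heavy chains, light chains with C proteins, and troponins, with 1 point per library and no error bars; open markers are genes listed at 0. Fast forms such as *Tnnc2* (1274 to 2766 FPKM) lie far above slow forms such as *Tnni1* (0.125 to 0.815), and *Mybpc1* is the slow form with a level near its fast counterpart.

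By mean FPKM, *Acta1* came first (1453 in IMQ, 3924 and 2775 in IMQ+VEH, 3411 in IMQ+IDMF). The fast troponins, *Mylpf*, *Ckm* and *Myl1* followed with means of 1481 to 2177, and these neighbours overlap in range over the libraries. *Pvalb*, a calcium buffer of fast fibres, had 716, 1289, 854 and 1165 FPKM, and *Atp2a1* had 511, 937, 576 and 953. The titin gene *Ttn* and the nebulin gene *Neb*, which code for the giant filament proteins, had 7.88 to 18.0 and 13.9 to 39.0 FPKM. The perinatal heavy chain *Myh8* had 19.2, 42.5, 20.2 and 33.9 FPKM, and the embryonic chain *Myh3* had 1.86, 3.63, 1.83 and 3.34. The developmental chains kept shares of 3.49% to 3.73% (*Myh8*) and 0.316% to 0.352% (*Myh3*) of the 6 chains.

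The comparison of IMQ+VEH with IMQ asks what the lotion without the compound does on imiquimod-treated skin. Muscle genes were mostly higher in the lotion-treated libraries: 28 of 37 lay above IMQ in both IMQ+VEH libraries, where 33.5% of all genes tested did, and 2 (*Myl2* and *Tnni1*) lay below it in both, where 35.0% of all genes did. The median log2 CPM difference to IMQ was 0.80 for replicate 1, 0.33 for replicate 2 and 0.58 for their mean, against -0.01 over all genes tested for the mean. No single member passed the test. EdgeR's quasi-likelihood test called 0 of 37 at an adjusted p of 0.05, against 0.664% of all 15068 genes, and the smallest adjusted p was 0.364. An unadjusted p under 0.05 was found for 4 of 37 (*Mybpc1*, *Mb*, *Myf6* and *Actn2*, named after their values were seen), all 4 higher in IMQ+VEH. Over all genes 8.81% had such a p, and 6.26% had it and were higher. DESeq2 called 1 of 33 members, *Acta1* (log2 fold change 1.10, SE 0.33, adjusted p = 0.0475), against 1.54% of all genes.

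In IMQ *Acta1* had 2681 CPM, and the IMQ+VEH libraries had 6479 and 4982 (5730 ± 1059, SD, n = 2), with an edgeR log2 fold change of 1.10 (SE 0.76). Both IMQ+VEH libraries lay above IMQ, and the SE of the same difference was 0.33 in DESeq2. *Tpm2*, a tropomyosin that carries troponin on the thin filament, had 1082 CPM in IMQ against 2073 and 1782 with lotion (log2 fold change 0.83, SE 0.54). For *Tnnc2* the values were 901 against 1751 and 1461 CPM (0.83, SE 0.52), and for *Tnni2* 856 against 1464 and 1414 (0.75, SE 0.50). These genes lay above IMQ in both libraries by about 0.70 or more on the log2 CPM scale. They are among the 6 members farthest up by the smaller difference to IMQ, so this height was fixed by the choice. The other thin-filament members tested were lower in replicate 2 minus IMQ: 0.59 for *Tnnt3*, 0.02 for *Tnnt1*, -0.57 for *Neb* and -2.11 for *Tnni1* (3 counts in replicate 2).

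*Mybpc1* had 213 CPM in IMQ against 522 and 381 with lotion (log2 fold change 1.09, SE 0.38). *Mb*, the oxygen store myoglobin, had 164 against 266 and 369 CPM (0.95, SE 0.36), and it was one of 6 members tested that were higher in replicate 2 than in replicate 1. *Myh4* gave another picture: 3509 CPM in IMQ against 6389 and 3525 in IMQ+VEH (0.50, SE 0.75), so replicate 2 lay at the level of IMQ. *Neb* had 648 against 1127 and 437 CPM (0.27, SE 0.54), with replicate 2 below IMQ. The anchor protein gene *Actn3* of fast-fibre Z-discs had 664 against 774 and 477 CPM (-0.09, SE 0.44), also on both sides of IMQ. *Myl2* and *Tnni1*, the members below IMQ in both libraries, had 25 against 20 and 9 counts, and 23 against 21 and 3 counts.

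By role, 12 of 13 fast-fibre genes lay above IMQ in both IMQ+VEH libraries (33.5% of all genes tested). Their median log2 CPM difference, IMQ+VEH mean minus IMQ, was 0.63. Of 5 slow-fibre genes tested, 2 lay above in both and 2 below in both (median -0.13). Those below, *Myl2* and *Tnni1*, and *Myh7*, whose value is the median, had only 3 to 41 counts per library. *Mybpc1* (1.07) and *Tnnt1* (0.58), with more counts, lay above. *Mybpc1* was the exception among slow forms in its level, so it may not stand for slow fibres. This and the low counts leave a contrast of fast with slow genes unsettled. In calcium handling, 3 of 5 genes lay above in both (median 0.42): *Atp2a1*, *Casq1* and *Pvalb*. All 3 are also counted among the fast-fibre genes, so they are not separate from that count. The release channel gene *Ryr1* (413 CPM in IMQ, 622 and 358 in IMQ+VEH) and the voltage sensor gene *Cacna1s* (123 against 191 and 115) did not. Among the 32 members with a mean count of at least 50, 27 lay above IMQ in both libraries and 0 below in both.

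**Figure D2:**
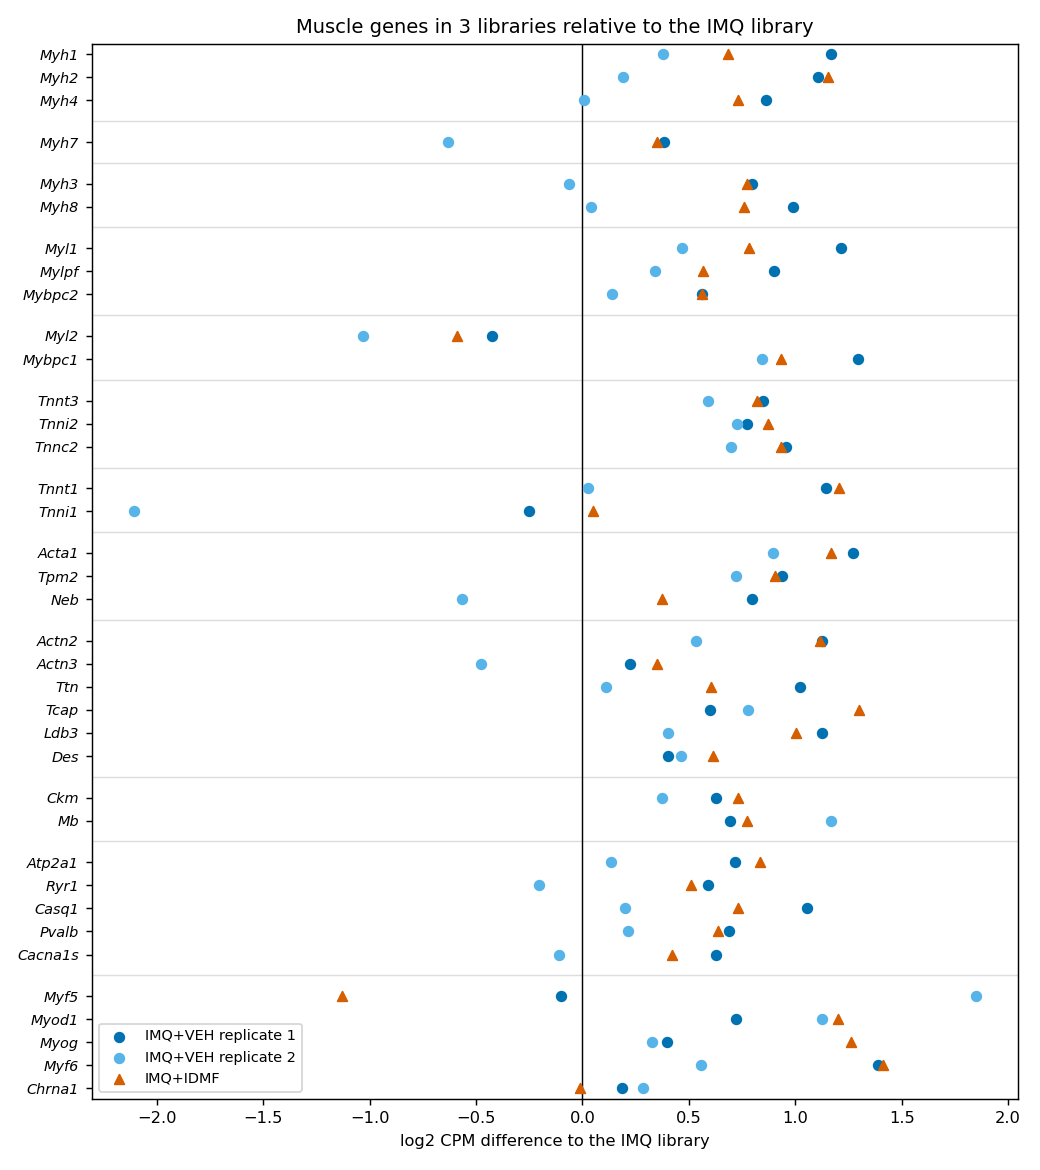
Log2 CPM difference to the IMQ library (x axis) for the 37 muscle genes tested, grouped by role, with 1 point per library for IMQ+VEH replicates 1 and 2 and IMQ+IDMF and no error bars. Most points lie right of 0, and IMQ+VEH replicate 2 (light circles) lies left of replicate 1 (dark circles) for 31 of 37 genes.

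What the compound adds to the lotion is asked by setting IMQ+IDMF against IMQ+VEH, which shares the IMQ+VEH libraries with the comparison above. For 23 of 37 members, IMQ+IDMF lay between the 2 IMQ+VEH libraries. It was above both for 12 (27.7% of all genes tested) and below both for 2, *Myf5* and *Chrna1* (27.5% of all genes). *Myf5* passed the filter through IMQ+VEH replicate 2 alone, so the filter favoured its place below. Relative to replicate 1 the median log2 CPM difference was -0.03, relative to replicate 2 it was 0.49, and relative to their mean 0.21 (0.01 over all genes), so its direction depended on the replicate. Without replicate 1, 34 of 37 members lay above the remaining IMQ+VEH library (50.5% of all genes), and without replicate 2 it was 13 of 37 (49.5%). EdgeR called 0 of 37 members (0.0% of all genes), 0 of 37 had an unadjusted p under 0.05 (2.03% of all genes), and DESeq2 called 0 of 40 (0.0% of all genes). Errors of the members' log2 fold changes ran from 0.33 to 1.90, so differences of this size were not detectable in this design.

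Some members lay above both IMQ+VEH libraries. *Tcap*, which caps titin at the Z-disc, had 768 CPM with IDMF, 473 and 535 with lotion alone (504 ± 44.1, SD, n = 2) and 312 in IMQ, with a log2 fold change to IMQ+VEH of 0.61 (SE 0.37). *Actn3* had 846 against 774 and 477 CPM (0.44, SE 0.43). For *Atp2a1* it was 4256 against 3915 and 2616 CPM (0.38, SE 0.63), and for the intermediate filament gene *Des*, which smooth muscle also uses, 1276 against 1102 and 1152 (0.18, SE 0.46). *Tnni1* had 21 counts against 21 and 3 (1.01, SE 1.09), and the slow troponin T gene *Tnnt1* had 10.3 CPM against 9.84 and 4.49 (0.52, SE 0.51). For *Actn3*, *Atp2a1*, *Tnni1* and *Tnnt1*, IMQ+IDMF stood closer to replicate 1 than to replicate 2, and *Tcap* lay apart from both. *Myh4* had 5819 CPM, between 6389 and 3525 (0.23, SE 0.73), and *Ckm* had 3277 against 3052 and 2561 (0.22, SE 0.59). For *Myh4* the IDMF value was inside the range of the IMQ+VEH pair, and for *Ckm* it was just above it.

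Setting IMQ+IDMF against IMQ compares single libraries and is described by sizes, with no test run, and it shares IMQ with the first comparison. Of 37 members, 34 lay above IMQ (50.1% of all genes tested), with a median log2 difference of 0.76 (0.00 over all genes). At least 2-fold above were 9 members (6.78% of all genes): *Myf6*, *Tcap*, *Myog*, *Tnnt1*, *Myod1*, *Acta1*, *Myh2*, *Actn2* and *Ldb3*. Across the 4 libraries, IMQ was lowest for 27 of 37 members (28.9% of all genes), IMQ+VEH replicate 1 highest for 21 (29.0%) and IMQ+IDMF highest for 12 (19.2%).

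The myogenic regulators were scarce and did not move as 1 group. *Myog*, which codes for myogenin, the factor of differentiating muscle cells, had 40 counts in IMQ, 59 and 41 in IMQ+VEH and 87 in IMQ+IDMF, or 1.58, 2.10, 2.00 and 3.89 CPM. IMQ+IDMF lay above the other 3 libraries, which sit close together, and the log2 fold change to IMQ+VEH was 0.92 (SE 0.63) with an edgeR adjusted p of 1. *Myod1*, the determination factor, had 25, 47, 46 and 53 counts (log2 fold change of IMQ+IDMF to IMQ+VEH 0.28, SE 0.71), with IMQ lowest and the other 3 close. *Myf6*, the factor of mature fibres and the most abundant of the regulators, had 187, 545, 223 and 441 counts (0.38, SE 0.40), and followed the fibre genes in being high in replicate 1 and IMQ+IDMF.

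The markers of satellite cells were at or near the floor. *Pax7* had 4, 11, 5 and 2 counts and was not tested. *Myf5* had 5, 5, 19 and 1 counts, and passed the filter through IMQ+VEH replicate 2 alone. *Chrna1*, which fibres express at the synapse and more widely after loss of their nerve, had 134, 169, 132 and 117 counts, or 5.23 to 6.44 CPM. IMQ+IDMF lay below both IMQ+VEH libraries by 0.20 and 0.30 on the log2 CPM scale (log2 fold change -0.25, SE 0.48).

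To set aside a shared change in muscle RNA, the regeneration genes were read relative to the median of the 33 other members tested. In IMQ+IDMF against the IMQ+VEH mean, *Myog* stood 0.72 above that median (0.89 to replicate 1 and 0.49 to replicate 2). *Myod1* stood 0.10 above it (0.51 and -0.37), *Myh3* 0.23 (0.01 and 0.40) and *Myh8* 0.07 (-0.20 and 0.28). *Myog* was thus the 1 gene of the 4 that lay well above the median against each IMQ+VEH library. In IMQ+VEH against IMQ the same 4 genes had -0.26 (*Myog*), 0.30 (*Myod1*), -0.25 (*Myh3*) and -0.11 (*Myh8*). The values have no test.

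Fusion of muscle precursors needs myomaker and myomixer, listed here under the older symbols *Tmem8c* and *Gm7325*, and these genes were singled out after their values were seen. *Tmem8c* had 15 counts in IMQ+IDMF and 0 in the other 3 libraries, which is at least 4.58-fold higher than the floor of 3 counts per library. *Gm7325* had 17 counts with IDMF, 5 in IMQ, and 3 and 1 with lotion alone. Both passed the filter on low counts through IMQ+IDMF alone, and edgeR gave each an adjusted p of 1. *Ankrd1*, a stretch and injury response gene of muscle that other cells also express, had 156 counts with IDMF, 28 in IMQ, and 15 and 49 with lotion alone (log2 fold change 2.28, SE 0.75, edgeR adjusted p of 1). Its relative *Ankrd2* had 730 counts against 422, and 656 and 319 (0.74, SE 0.33, edgeR adjusted p of 1). These 4 are the genes of their list with an unadjusted edgeR p under 0.05 in this comparison, so their being high in IMQ+IDMF was fixed by the choice. Over the whole list, IMQ+IDMF was the highest library for 7 of 15 genes tested (19.2% of all genes), a count that includes the pair that passed the filter through IMQ+IDMF alone.

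**Figure D3:**
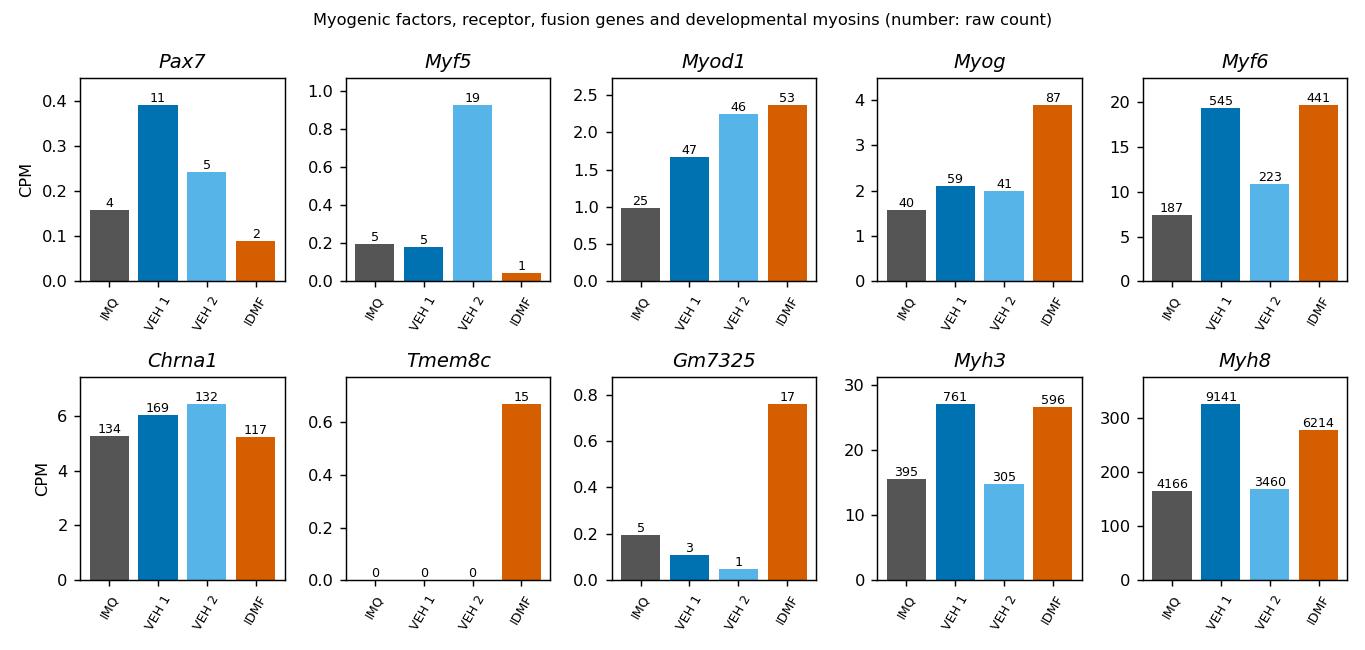
CPM (bars, from 0) in each library for myogenic factors, the acetylcholine receptor gene, both fusion genes and the developmental myosins, with the raw count above each bar and no error bars. *Myog* (87 counts), *Tmem8c* (15) and *Gm7325* (17) are highest in IMQ+IDMF, whereas *Myh3* and *Myh8* are highest in IMQ+VEH replicate 1.

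Within the IMQ+VEH pair the gap between replicates went with transcript length. Over the 32 members with a mean count of at least 50, the Spearman correlation of summed exon length (GENCODE M21) with replicate 2 minus replicate 1 was -0.57. It was -0.23 over 14572 genes, so the same direction was present outside muscle. Genes of 1 library share its depth and RNA, and these are descriptions across genes. For the 11 shortest members (800 to 1951 bases) the median of replicate 2 minus replicate 1 was -0.26, for the 10 in the middle -0.50 and for the 11 longest (4527 to 116825 bases) -0.86. With all genes tested cut at the same lengths, the medians were 0.17, 0.02 and -0.12. At the ends, *Neb* had 1127 and 437 CPM in replicates 1 and 2, *Ttn* 1985 and 1057, and the short genes *Tnni2* and *Tcap* 1464 and 1414, and 473 and 535.

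The same split appeared against IMQ for replicate 2 (Spearman -0.58, medians 0.59 for the shortest and 0.04 for the longest members) and not for replicate 1 (0.05, medians 0.85 and 0.99). IMQ+IDMF minus IMQ had -0.42, with medians of 0.87 and 0.73. Over 14572 genes the correlations, each minus IMQ, were -0.23 for replicate 2, 0.01 for replicate 1 and -0.09 for IMQ+IDMF. With the trend on length over all genes taken out of each library, a step added after the data were seen, the member median of replicate 2 minus replicate 1 was -0.58. The spread over the 32 members went from an SD of 0.41 to 0.35. Member medians to IMQ became 0.73 for replicate 1 and 0.29 for replicate 2.

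**Figure D4:**
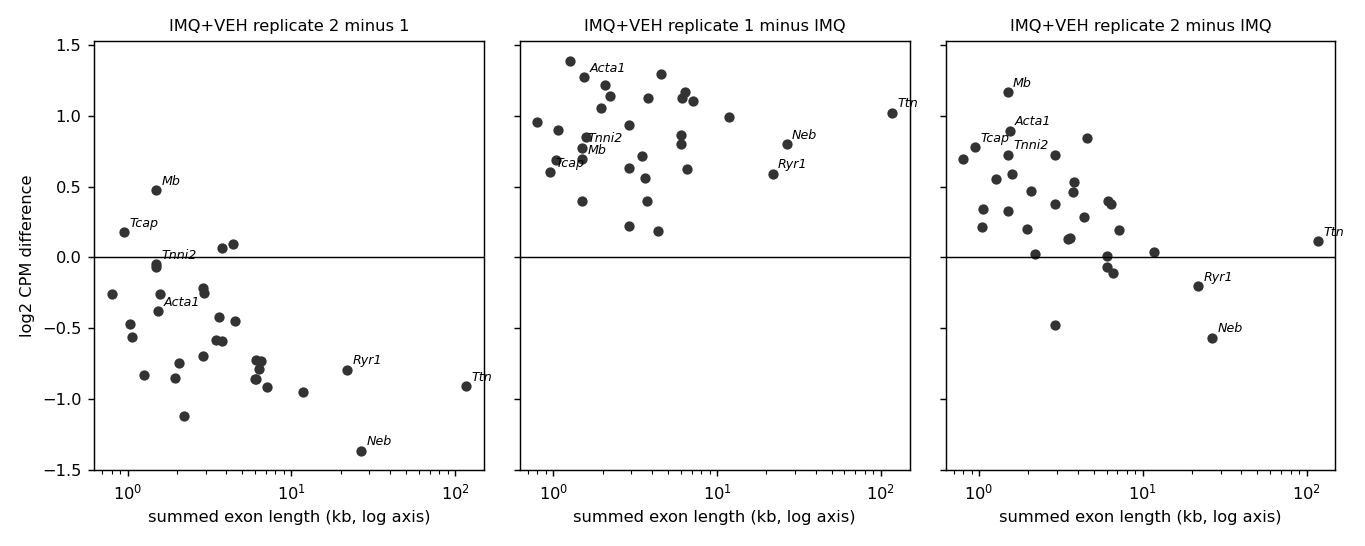
Log2 CPM difference (y axis) against summed exon length in kilobases (log axis) for the 32 muscle genes with a mean count of at least 50; each point is a gene. IMQ+VEH replicate 2 minus replicate 1 declines with length (Spearman -0.57), as does replicate 2 minus IMQ (-0.58), while replicate 1 minus IMQ does not (0.05).

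Other muscle genes were read from 6 lists set up by known function. Of the 78 tested, 0 passed edgeR's test in either comparison (0.664% and 0.0% of all genes). At an unadjusted p under 0.05 the IMQ+VEH against IMQ comparison had 17 of 78 (8.81% of all genes), and DESeq2 called 1 of 73, *Csrp3* (1.54% of all genes). In IMQ+IDMF against IMQ+VEH it was 6 of 78 (2.03% of all genes), with 0 of 79 called by DESeq2 (0.0%). The 6 include *Tmem8c* and *Gm7325*, which passed the filter through IMQ+IDMF alone, so the filter favoured their small p and the count is no evidence of an excess. Among 25 other sarcomere genes, 19 lay above IMQ in both IMQ+VEH libraries (33.5% of all genes), with a median log2 CPM difference of 0.59. *Tpm1*, a tropomyosin also made by many other cells, had 1191 CPM in IMQ, 2082 and 1575 in IMQ+VEH and 1738 in IMQ+IDMF, and *Fhl1*, a sarcomere-associated LIM protein gene, had 566, 1323, 891 and 1150. *Csrp3*, the Z-disc LIM protein gene, singled out after its values were seen, had 48.2, 116, 121 and 134 CPM. Its log2 fold change in IMQ+VEH against IMQ was 1.30 (SE 0.28, edgeR adjusted p = 0.0746), and in DESeq2 the adjusted p was 0.00887. Under other edgeR settings *Csrp3* was called, with adjusted p = 0.0451 on total counts, 0.0357 at a mean count of at least 50 and 0.00299 without a filter. Without a filter edgeR also called *Xirp1*, a gene of muscle attachment sites (adjusted p = 0.00767, against 0.332 with the filter).

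Of 13 further genes of excitation-contraction coupling, 9 lay above IMQ in both IMQ+VEH libraries (median 0.48), where 33.5% of all genes tested did. This share stands beside each such count that follows. The 2 most abundant by mean FPKM were *Jsrp1*, a triad protein gene, with 43.7, 77.6, 74.9 and 81.4 CPM in IMQ, IMQ+VEH replicates 1 and 2, and IMQ+IDMF, and *Sln*, which codes for the SERCA inhibitor sarcolipin, with 18.7, 27.2, 13.0 and 37.4. The 12 energy genes had 9 above in both (median 0.61), with *Eno3*, a muscle enolase, at 732, 1293, 1212 and 1347 CPM and *Pgam2*, a muscle phosphoglycerate mutase, at 167, 342, 333 and 324. Of 7 neuromuscular junction genes tested, 5 lay above in both (median 0.61). Values of the 2 most abundant were, for *Chrnb1*, a receptor subunit gene with replicate 2 at the level of IMQ, 6.54, 11.5, 6.54 and 10.2 CPM, and for *Rapsn*, which clusters the receptor, 5.04, 7.59, 6.10 and 6.62. The 6 sarcolemma genes had 4 above in both (median 0.60), with *Cav3* (caveolin of muscle) at 13.5, 27.3, 24.8 and 24.4 CPM and *Sgca* (a sarcoglycan) at 19.1, 31.4, 24.3 and 32.8. Of 15 fusion, growth and atrophy genes, 6 lay above in both (median 0.24), not far from the 33.5% of all genes. A further 2 lay below in both and 7 did neither, among them *Tmem8c*, with 0 counts in IMQ and both IMQ+VEH libraries. The list's median of replicate 2 minus IMQ was 0.00. That is the value of the undetected *Tmem8c*, so it does not measure a lack of change. *Mstn*, the growth inhibitor myostatin, had 60.3, 110, 46.1 and 113 CPM.

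Markers of other cell types also differed between these libraries, and their part in the muscle values was not tested. In IMQ, IMQ+VEH replicates 1 and 2, and IMQ+IDMF, 10 adipocyte markers summed to 866, 3938, 2695 and 2946 CPM, and all 10 were lowest in IMQ. The 9 smooth muscle markers summed to 158, 428, 229 and 412 CPM and were all lowest in IMQ, as were 6 of 6 Schwann cell markers (103, 445, 249 and 229). Fibroblast markers summed to 1890, 6843, 3602 and 2381 CPM, and for all 10 IMQ+IDMF lay below both IMQ+VEH libraries. Hair follicle markers summed to 80.9, 11.9, 14.4 and 31.4 CPM, with all 10 lower than IMQ in both IMQ+VEH libraries. Basal keratinocyte markers summed to 15447, 9086, 9702 and 11397 CPM, a sum led by *Krt14* (9905 CPM in IMQ), while 4 of the 6 were highest in IMQ+IDMF. Differentiated keratinocyte markers summed to 48820, 39105, 50662 and 43931 CPM. Their median log2 CPM difference, replicate 2 minus replicate 1, was 0.40 (-0.03 over all genes tested). Tendon markers summed to 10.1, 27.9, 16.8 and 18.2 CPM, with 4 of 5 lowest in IMQ (28.9% of all genes). Endothelial markers summed to 101, 219, 104 and 151 CPM, with replicate 1 highest and replicate 2 near IMQ, the order that *Myh4* also had, and 5 of 7 were above IMQ in both IMQ+VEH libraries. Macrophage markers summed to 646, 1077, 599 and 410 CPM, and for all 8 the IDMF library was below either lotion library. The 5 brown fat markers summed to 168, 350, 551 and 471 CPM, a sum led by *Elovl3* (118 to 455 CPM). Of 4 tested, 3 were lowest in IMQ, among them *Elovl3* (3004 to 9319 counts) and *Cidea* (959 to 1742). *Dio2* went the other way, with 162, 87, 57 and 48 counts, and *Ucp1* had 0 or 1 count per library, so the sum is no measure of brown fat. The cardiac marker *Nppa* had 0 to 2 counts. The cardiac genes *Myh6*, *Tnnt2*, *Tnni3* and *Myl7* had 10 to 115 counts per library. *Ryr2* had 16, 24, 14 and 27 counts, and *Nppb* had 28, 110, 92 and 58. Of 6 cardiac genes tested, 2 (*Nppb* and *Ryr2*) lay above IMQ in both IMQ+VEH libraries (33.5% of all genes tested). Another 2 lay below it in both (35.0% of all genes).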

How the data were processed

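Read counts and FPKM values were analysed for 4 RNA-seq libraries of mouse back skin (single-end runs of 50 cycles, total counts of 21167149 to 26639628). For each library the authors deposited a raw count and an FPKM value per gene symbol, per the file headers. Tools named per the submitters' processing notes are HTSeq, Cufflinks and TopHat2, with mm10 and GRCm38 as builds. Their versions and roles, the annotation, the strand setting and the treatment of multiply mapped reads are not given in the labels or headers. Exons of 17 of the 40 genes overlap a gene on the other strand (for *Tnnc2* 592 bases with *Ube2c*), and 6 share over 10% of 50-base windows with another gene.

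The test was the two-sided quasi-likelihood F test of edgeR 4.0.16 (R 4.3.3) with TMM scaling and 1 mean per group. The filter (filterByExpr by group) asks for about 10 counts in at least 1 library and 15 summed over libraries. It kept 15068 genes, over which p-values were adjusted by Benjamini-Hochberg (threshold 0.05). With 1 residual degree of freedom, IMQ and IMQ+IDMF are taken to have the spread of the IMQ+VEH pair, moderated by the spread over all genes. Log2 CPM differences used a prior count of 2. The SE was taken as the size of the log2 fold change over the root of F. The fit was also run on simulated counts drawn from its own means and spread. Such counts cannot check the assumption that the single libraries vary like the IMQ+VEH pair. Members and gene lists were chosen with earlier results of these data known. Values are printed by rule for the member of highest mean FPKM in each role (2 in roles of 5 or more), the 6 farthest up and the 6 farthest down in each replicated comparison by the smallest difference between single libraries, all 6 heavy chains, the myogenic factors, *Pax7* and *Chrna1*, and the 2 genes of highest mean FPKM in each further list. Other genes were named after their values were seen. Alternatives were DESeq2 1.42.0, other scalings, filters, prior counts, FPKM (log2 of FPKM plus 0.1), a robust fit and leaving out libraries. Positions and exon lengths came from GENCODE M21 (GRCm38, all 40 members found) and promoters from RefSeq (GRCm38.p6).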

Additional observations from a re-analysis of the deposited data

How the results depend on the processing

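In IMQ+VEH against IMQ, 0 members were called under edgeR's alternative scalings, filters and robust fit, and DESeq2 called 1. Genes called in all were 100 in the main analysis, 202 by DESeq2 and 424 without a filter (IMQ+IDMF against IMQ+VEH: 0, 0 and 16). Leaving out an IMQ+VEH library leaves no residual degree of freedom, so those values have no test. The member median ranged from 0.33 to 0.80 for IMQ+VEH against IMQ and from -0.03 to 0.49 for IMQ+IDMF against IMQ+VEH when an IMQ+VEH library was left out. The number of members with IMQ+IDMF above IMQ+VEH ranged from 13 to 34. The median of the 4 regeneration genes relative to the others was -0.18 in IMQ+VEH against IMQ, -0.041 with the length trend taken out (added after the data were seen), and -0.157 to -0.039 with an IMQ+VEH library left out. In IMQ+IDMF against IMQ+VEH it was 0.16, became 0.22 relative to fast-fibre genes, and was 0.26 to 0.34 with an IMQ+VEH library left out. In the 150 bases nearest the start, CAGCTG stood in 20.0% of muscle windows and 9.40% of all. In IMQ+VEH against IMQ the sign turned for *Myh7* with total counts (0.060), and the cause was not tested. In IMQ+IDMF against IMQ+VEH, taking IMQ and IMQ+VEH as 1 group adds IMQ to the reference. There it turned for *Myh1* (0.084), *Mylpf* (0.10), *Myl2* (-0.19) and *Mybpc1* (0.13). IMQ had lower CPM than both IMQ+VEH libraries for *Myh1*, *Mylpf* and *Mybpc1*, and higher CPM for *Myl2*. None of these genes was called. No paired analysis was possible because IMQ and IMQ+IDMF hold a single library each, so no replicate number is shared by 2 pairs. Depth limits *Pax7*, *Myf5*, *Tmem8c*, *Gm7325* and the slow isoforms, where few counts stand behind a value.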
